A study of Mus musculus with 9 samples.

Results

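The Bcl-2 family genes followed here were Bcl2, Bcl2l1, Mcl1, Bcl2a1b, Bcl2l11, Bbc3, Pmaip1, Bid, Bax and Bak1. They were taken by gene symbol from the table of deposited levels, where all 10 were found among 24060 genes, and all 10 were among the 11330 genes tested, whose highest level in any library exceeded 1 TPM, a length-corrected share of all transcripts of the library. RNA came from CD8 T cells of 3 mouse clones named R7-I, R7-II and R7-III, whose receptors all recognise 1 peptide derived from ROP7, a protein of the parasite Toxoplasma gondii. Each clone comes from a transnuclear line on a Rag2-proficient BALB/c background, made from the nucleus of a single CD8 T cell. Its rearranged T cell receptor genes lie at their endogenous loci, without a transgene. The submitters rank the receptors R7-I, R7-III, R7-II from highest to lowest affinity for the peptide and R7-III, R7-I, R7-II for self-reactivity. Splenocytes of every clone received the same treatment, overnight culture with ROP7 peptide (10 µM) in medium that held IL-2 (10 ng/ml), after which CD3+ CD8+ cells that bound the ROP7 tetramer were sorted. There were 3 libraries labelled as biological replicates per clone, 9 in all. The age of the mice was not given. Because each clone is 1 line, receptor affinity, self-reactivity and anything else that differs between the lines cannot be told apart.

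Bcl-2 family proteins decide at the outer mitochondrial membrane whether a cell dies. Survival proteins (Bcl-2, Bcl-xL from Bcl2l1, Mcl-1 and A1 from the Bcl2a1 genes) hold in check the pore-forming effectors Bax and Bak, and BH3-only proteins (Bim from Bcl2l11, Puma from Bbc3, Noxa from Pmaip1 and Bid) bind the survival proteins or engage the effectors. Resting T cells are known to rely on Bcl-2, which cytokines of the IL-7 type sustain, whereas activated T cells induce Bcl-xL and A1, and Bim is a main driver of death when T cell responses contract.

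In activated R7-II CD8 T cells, the survival genes Bcl2 and Mcl1 and the death genes Bbc3 and Bcl2l11 were all higher than in R7-I and R7-III, while Bcl2l1 and Bid were lower. Bcl2 stood 3.21 times and Bbc3 3.56 times above their R7-I means, and Bcl2l1 lay at 0.633 of its R7-I mean. Levels of these 6 genes in the 3 R7-II libraries did not overlap with the other 6 libraries. For all 11330 genes the share without overlap was 59.1% (41.7% higher and 17.4% lower in R7-II), so a count of 6 among 10 was near the background. Levels of Bcl2a1b, Pmaip1, Bax and Bak1 overlapped. In mean TPM the closest pair of clones was R7-I with R7-III for 8 of the 10 genes, the exceptions being Bak1 and Bcl2a1b. The same share over all genes was not worked out, so this count shows nothing particular to these genes.

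**Figure D1:**
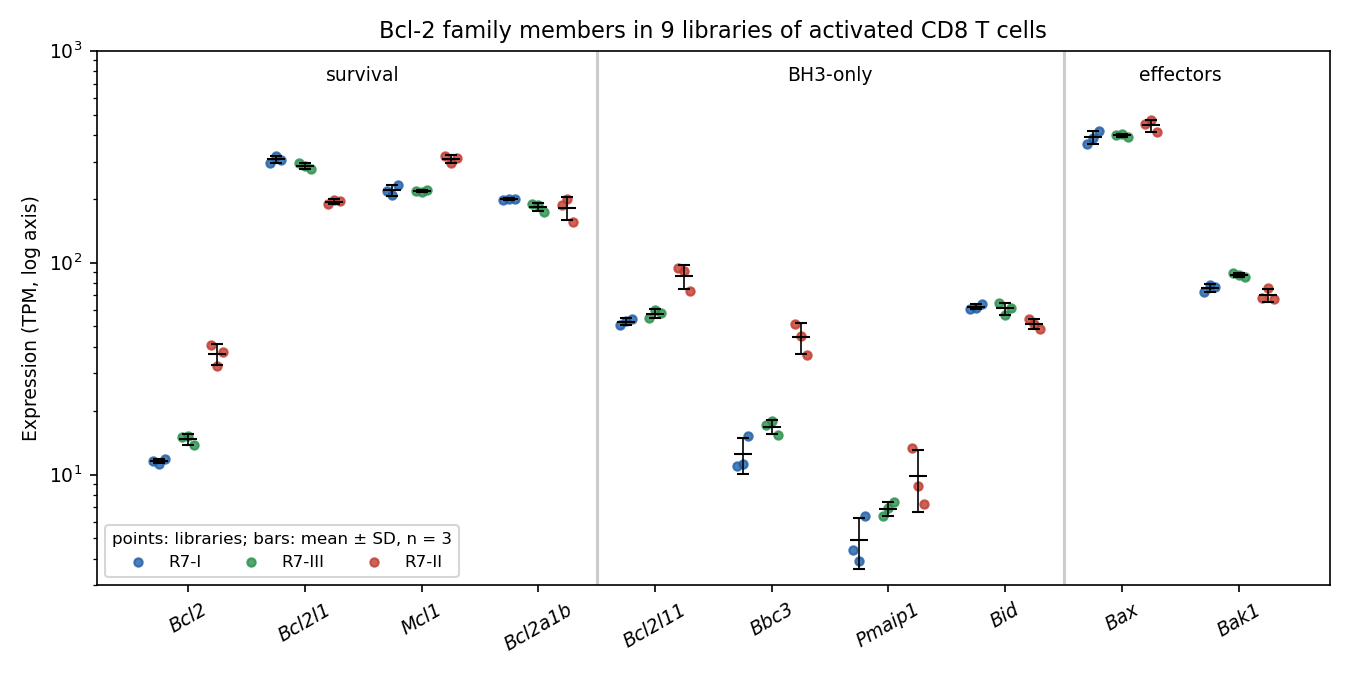
TPM of the 10 Bcl-2 family genes in each of the 9 libraries on a log axis, with 1 point per library and bars for the clone means and SD. The R7-II points lie above all others for Bcl2, Mcl1, Bcl2l11 and Bbc3 and below all others for Bcl2l1 and Bid.

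Each library held 13738 to 14434 genes with a level above 0. TPM values sum to a fixed total and keep no read depth, so no counting interval is given. Cd8a lay between 339 and 452 TPM and Cd3e between 267 and 389 TPM, while Cd4 did not exceed 1.00 TPM. Cd4 too was higher in R7-II, at 0.95 to 1.00 TPM against 0.22 to 0.53 in the other 6 libraries. The sum of 3 CD4 T cell genes was 2.18 to 2.94 TPM against 0.72 to 1.35. Markers of other cells were low but moved with R7-II. The summed TPM of 8 B cell genes was 36.3 to 74.6 in R7-II against 5.23 to 15.7 in the other 6 libraries, that of 9 MHC class II genes was 133 to 203 against 28.1 to 57.0, and that of 11 myeloid genes was 32.7 to 98.1 against 12.6 to 18.1. None of these 28 genes was at 0 in all libraries. Of 3 NK cell genes, Klra8 was at 0 throughout and the sums did not exceed 0.17 TPM. The 11 T lineage genes also had a higher sum in R7-II, 4177 to 4302 TPM against 3090 to 3342. Replicate 2 had the lowest B cell, MHC class II and myeloid sums of the R7-II libraries. It also had the lowest Bcl2 and Mcl1 levels of the R7-II libraries, 32.56 and 294.25 TPM, and replicate 1, with the highest B cell sum, had the highest, 41.05 and 318.78 TPM. In no R7-I or R7-III library did Bcl2 exceed 15.26 TPM or Mcl1 232.48 TPM. Bbc3 and Bcl2l11 did not follow that order and were lowest in replicate 3, at 36.77 and 73.65 TPM. The part of other cells in these levels was not tested, and a change in RNA per cell cannot be told apart from a change in the share of cells that express a gene.

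All comparisons were made by limma on log2(TPM + 1), with p-values adjusted over the 11330 genes and a threshold of 0.01. Between R7-II and R7-I, 8 of the 10 genes passed, 6 higher and 2 lower in R7-II, against 56.1% of all genes tested (40.6% higher and 15.5% lower). Between R7-II and R7-III, 7 passed, 4 higher and 3 lower, against 53.6% (35.6% higher and 18.0% lower). Both comparisons use the same R7-II libraries and are not independent. The median log2 fold change over all genes was 0.17 and 0.12 in these comparisons, and over the 10 genes 0.34 and 0.28. When the libraries were instead scaled by median-of-ratios factors, which set that all-gene median near 0, the split against R7-I was 5 higher and 4 lower, beside 54.7% of all genes (25.2% and 29.4%), and that against R7-III was again 4 and 3, beside 53.3% (25.0% and 28.2%). Changes of about the size of the all-gene median, such as that of Bax, therefore depend on the scaling.

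**Figure D2:**
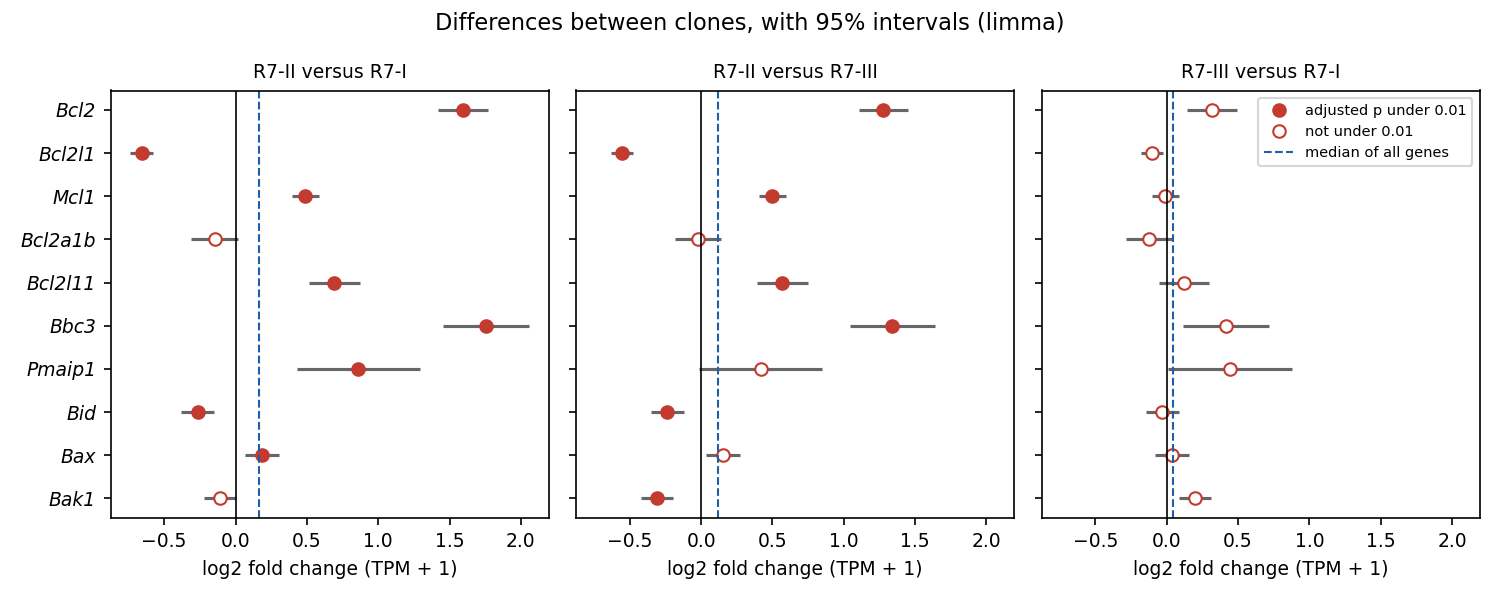
Log2 fold change on the log2(TPM + 1) scale of each of the 10 genes in the 3 comparisons of clones, with 95% confidence intervals from limma. Bbc3 and Bcl2 lie farthest to the right in both comparisons with R7-II, at 1.76 and 1.59 against R7-I, and Bcl2l1 lies farthest to the left, at -0.66.

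Among the survival genes, Bcl2 had the lowest level and the largest difference. It encodes the founding member of the family, and its gene lies on chromosome 1 (chr1:106538178-106714274, minus strand, mm10). Bcl2 was at 11.63, 11.28 and 11.85 TPM in R7-I, at 15.06, 15.26 and 13.73 TPM in R7-III and at 41.05, 32.56 and 37.86 TPM in R7-II. The lowest R7-II library was thus well above the highest library of the other clones. On the log2(TPM + 1) scale the fold change was 1.59 (SE 0.0788, adjusted p = 9.46e-08, limma) against R7-I and 1.28 (SE 0.0788, adjusted p = 3.53e-07) against R7-III. In size it ranked 258 and 524 of 11330 in these comparisons, and comparing R7-II with the 6 remaining libraries by an exact permutation test (two-sided) gave p = 0.0238, the smallest that 3 against 6 allow. Bcl2l1, Mcl1, Bcl2l11, Bbc3 and Bid reached this smallest value of the exact permutation test as well. Every gene without overlap reaches it, and 59.1% of all genes tested had no overlap. The test thus adds nothing to the lack of overlap given above.

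Bcl2l1 (chr2:152780668-152831728, minus strand), the gene for Bcl-xL, moved the other way. It was at 295.73, 319.30 and 306.62 TPM in R7-I, at 294.52, 285.92 and 277.23 TPM in R7-III and at 189.59, 198.56 and 194.81 TPM in R7-II. All R7-II libraries were below all others, and the spread within R7-II was small (194 ± 4.51 TPM, SD, n = 3). Its log2 fold change was -0.66 (SE 0.0354, adjusted p = 1.49e-07, limma) against R7-I and -0.55 (SE 0.0354, adjusted p = 4.34e-07) against R7-III. By mean level Bcl2l1 was the most abundant survival gene in R7-I and R7-III, and came after Mcl1 in R7-II.

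Mcl1 (chr3:95658788-95663176, plus strand) encodes a survival protein of short half-life. It was at 216.92, 208.71 and 232.48 TPM in R7-I, at 217.65, 214.89 and 220.89 TPM in R7-III and at 318.78, 294.25 and 311.94 TPM in R7-II. R7-I and R7-III overlapped, and the R7-II libraries stood above both. R7-II differed by a log2 fold change of 0.49 (SE 0.0422, adjusted p = 3.33e-06, limma) against R7-I and 0.50 (SE 0.0422, adjusted p = 2.94e-06) against R7-III.

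Bcl2a1b (chr9:89199209-89207827, plus strand) is 1 of 4 mouse A1 genes, which are targets of NF-kappa-B in activated lymphocytes. Bcl2a1b was at 197.87, 200.72 and 200.42 TPM in R7-I, at 188.38, 187.29 and 174.28 TPM in R7-III and at 186.55, 200.63 and 156.37 TPM in R7-II. The R7-II libraries were spread over the range of both other clones, and R7-III lay below R7-I. The log2 fold change against R7-I was -0.15 (95% confidence interval -0.31 to 0.02, adjusted p = 0.0965, limma) and against R7-III -0.02 (-0.19 to 0.14, adjusted p = 0.790). With median-of-ratios scaling the value against R7-I was -0.33 and passed (adjusted p = 0.00484). Its value is uncertain on its own, because the copies are nearly the same and reads can be shared out among them. The coding sequences of Bcl2a1b and Bcl2a1d, 516 bases each, differ at 6 positions (98.8% identity), and 31.1% of all 100-base windows of the Bcl2a1b transcript and 54.7% of those of Bcl2a1d also occur in a paralog. The first 60 coding bases are shown because they hold 6 of the 12 positions at which the copies a, b and d do not all have the same base, marked in capitals.
Bcl2a1a: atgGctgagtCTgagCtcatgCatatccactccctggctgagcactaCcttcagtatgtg
Bcl2a1b: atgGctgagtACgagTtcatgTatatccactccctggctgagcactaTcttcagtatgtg
Bcl2a1d: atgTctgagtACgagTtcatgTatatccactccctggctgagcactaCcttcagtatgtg

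Bcl2a1d differed more between the clones. It was at 163.62, 168.89 and 155.28 TPM in R7-I, at 152.84, 156.91 and 144.81 TPM in R7-III and at 79.21, 82.94 and 84.96 TPM in R7-II, so that every R7-II library was below every library of the others, and its mean was 0.507 of the R7-I mean. The ratio of Bcl2a1d to Bcl2a1b was 0.814 ± 0.0350 in R7-I, 0.827 ± 0.0137 in R7-III and 0.460 ± 0.0720 in R7-II (SD, n = 3). Bcl2a1c, which shares no 100-base window with the others, had a mean of 9.96 TPM in R7-I, 8.58 in R7-III and 5.36 in R7-II, and its R7-II libraries were also all the lowest. Bcl2a1a did not exceed 2.09 TPM. The sum of the 4 genes, which depends less on how reads were shared among them, though transcripts of unlike length weigh differently in TPM, was 372 ± 7.92 TPM in R7-I, 344 ± 14.3 in R7-III and 269.9 ± 21.2 in R7-II. Its log2 fold change was -0.47 (SE 0.0519, adjusted p = 2.01e-05, limma) against R7-I and -0.35 (SE 0.0519, adjusted p = 0.000163) against R7-III. The summed A1 level was thus lower in R7-II than in either clone, whereas Bcl2a1b alone passed against R7-I with median-of-ratios scaling only.

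**Figure D3:**
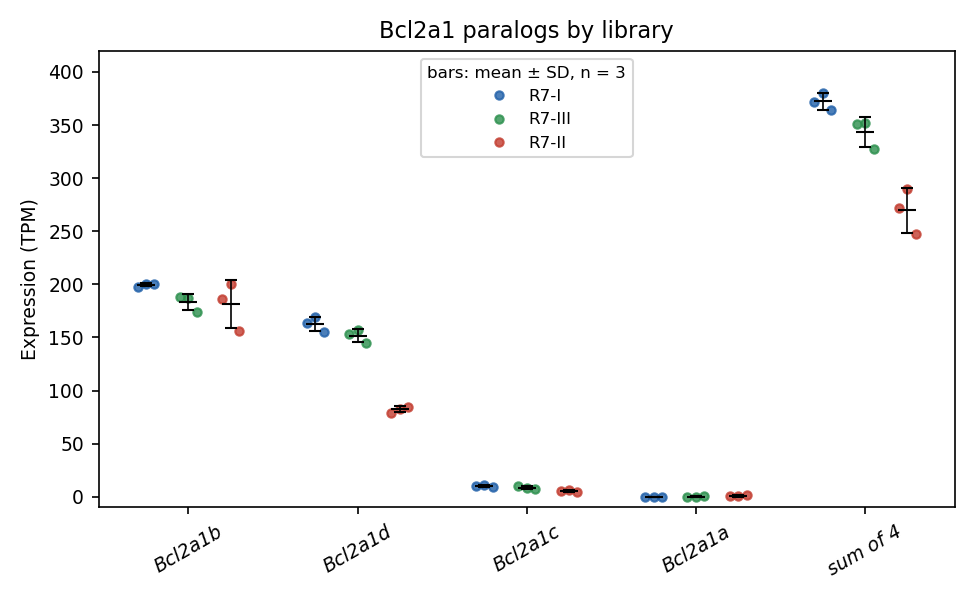
TPM of the A1 genes Bcl2a1a, Bcl2a1b, Bcl2a1c and Bcl2a1d and of their sum in the 9 libraries, 1 point per library, with horizontal bars for clone means. The R7-II libraries overlap the others for Bcl2a1b but lie below them for Bcl2a1d, at 79.2 to 85.0 TPM, and for the sum, at 248 to 290 TPM.

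Of the BH3-only genes, Bbc3 (chr7:16308393-16318205, plus strand) differed most. It encodes Puma, a target of p53 and of FOXO factors that binds all survival proteins. Bbc3 was at 10.92, 11.28 and 15.24 TPM in R7-I, at 17.17, 17.89 and 15.43 TPM in R7-III and at 51.63, 45.07 and 36.77 TPM in R7-II. No library of the other clones reached the lowest R7-II library. Bbc3 had a log2 fold change of 1.76 (SE 0.135, adjusted p = 1.53e-06, limma) against R7-I and 1.34 (SE 0.135, adjusted p = 1.04e-05) against R7-III, at ranks 196 and 482 of 11330 in size.

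Bcl2l11 (chr2:128126038-128162547, plus strand), the gene for Bim, was the most abundant BH3-only gene in R7-II. It was at 50.56, 53.32 and 54.43 TPM in R7-I, at 54.69, 59.82 and 58.18 TPM in R7-III and at 94.12, 91.26 and 73.65 TPM in R7-II. The R7-II libraries were again all the highest, but their spread (SD 11.1 TPM) was wider than that of the other clones. Bcl2l11 had a log2 fold change of 0.69 (SE 0.0799, adjusted p = 2.56e-05, limma) against R7-I and 0.57 (SE 0.0799, adjusted p = 0.000109) against R7-III.

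The promoters of these genes, except that of Pmaip1, were searched from 250 bases before to 50 bases after each RefSeq start (GRCm38.p6). Pmaip1 and the rest of its chromosome were left out, so the shares of promoters given below do not cover them. A FOXO motif (GTAAACA or its reverse complement) occurred at 1 of 2 Bcl2l11 starts and at 1 of 3 Bbc3 starts, and in 3.65% of 32851 promoters. A NF-kappa-B motif occurred at 1 of 3 Bcl2l1 starts and at 1 of 3 Bbc3 starts, and in 4.51% of promoters. No NF-kappa-B motif was found in the windows of the 4 A1 genes, and no p53 half-site in those of Bbc3. A p53 half-site occurred at the 1 Bax start, and in 8.36% of promoters. The windows that hold a FOXO or NF-kappa-B motif are shown, with the motif in capitals, because both kinds of factor appear among the regulators whose levels are given below. They are chr2:128125799-128125828 (plus strand) and chr7:16310082-16310111 (plus strand) for FOXO, and chr2:152830938-152830967 (minus strand) and chr7:16309436-16309465 (plus strand) for NF-kappa-B. At the last, 2 matches overlap.
Bcl2l11 FOXO: caagacactaggGTAAACAcgccggggtgg
Bbc3 FOXO: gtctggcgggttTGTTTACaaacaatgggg
Bcl2l1 NF-kappa-B: tgtttgtgGGGGGTCTCCagcatacgcctc
Bbc3 NF-kappa-B: tctggctgccGGGAAACCCCCcgcgccgag
A match is a string of letters in these windows and was not tested for binding.

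Pmaip1, the gene for Noxa, a BH3-only protein that binds Mcl-1 and A1, was the least abundant of the 10. It was at 4.39, 3.91 and 6.41 TPM in R7-I, at 6.39, 6.92 and 7.41 TPM in R7-III and at 13.37, 8.87 and 7.28 TPM in R7-II. The lowest R7-II library fell within the range of R7-III, and the R7-II libraries were the least even. Pmaip1 had a log2 fold change of 0.86 (SE 0.195, adjusted p = 0.00259, limma) against R7-I, which passed, and 0.42 (95% confidence interval -0.01 to 0.85, adjusted p = 0.0802) against R7-III, which did not.

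Bid (chr6:120891930-120916853, minus strand) links death receptors to the mitochondrion once caspase-8 has cut it. It was at 60.66, 61.20 and 64.14 TPM in R7-I, at 64.67, 56.85 and 60.86 TPM in R7-III and at 53.98, 51.43 and 48.86 TPM in R7-II. The R7-II libraries were all the lowest, though by a small margin. The log2 difference of Bid was -0.27 (SE 0.0532, adjusted p = 0.00116, limma) against R7-I and -0.24 (SE 0.0532, adjusted p = 0.00254) against R7-III. Bid shares 628 exon bases with Bcl2l13 on the opposite strand, and the library kit does not mark strand, so reads of these bases cannot be assigned to either gene. Bcl2l13 itself was slightly higher in R7-II, with 29.8 TPM against 23.8 in R7-I and 26.3 in R7-III. Bid is not alone in this limit. Bcl2 (558 exon bases) and Bak1 (177 and 437) also share bases with annotated genes on the opposite strand. Bax (192) and Bcl2a1b (401) share bases with annotated genes on the same strand.

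The effectors differed by at most 1.24-fold between clones. Bax (chr7:45461697-45466898, minus strand) was the most abundant gene of the 10, at 364.41, 389.08 and 417.81 TPM in R7-I, at 400.22, 404.88 and 393.36 TPM in R7-III and at 449.28, 470.35 and 413.76 TPM in R7-II. The third R7-II library lay below the third R7-I library. The log2 fold change of 0.19 against R7-I (SE 0.0532, adjusted p = 0.00947, limma) passed narrowly, was close to the all-gene median of 0.17 and was -0.00089 after median-of-ratios scaling (adjusted p = 0.991). That of 0.15 against R7-III did not pass (adjusted p = 0.0268).

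Bak1 (chr17:27019810-27029009, minus strand), the gene for Bak, was highest in R7-III. It was at 72.32, 78.48 and 77.12 TPM in R7-I, at 89.18, 87.89 and 85.32 TPM in R7-III and at 67.80, 76.07 and 67.41 TPM in R7-II. All R7-III libraries were above all others, whereas R7-I and R7-II overlapped. Its log2 fold change was -0.31 (SE 0.0508, adjusted p = 0.000320, limma) for R7-II against R7-III and -0.11 (95% confidence interval -0.22 to 0.00, adjusted p = 0.0778) against R7-I. With median-of-ratios scaling the latter was -0.29 (adjusted p = 0.00175).

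Between R7-III and R7-I no gene of the 10 passed the adjusted p of 0.01 by limma, where 8.41% of all genes did (6.96% higher and 1.45% lower in R7-III). With median-of-ratios scaling none passed either, beside 8.59% of all genes (4.86% and 3.72%). At an unadjusted p under 0.05 there were 5, and 2 passed an adjusted p of 0.05, namely Bcl2 (log2 fold change 0.32, adjusted p = 0.0192) and Bak1 (0.20, adjusted p = 0.0203). Both passed 0.01 without the second R7-II library and Bcl2 without the first, although R7-II enters this comparison through the estimate of the spread alone. The levels did not overlap between the 2 clones for 6 genes, with Bcl2, Bcl2l11, Bbc3 and Bak1 higher and Bcl2l1 and Bcl2a1b lower in R7-III, and 41.9% of all genes tested did not overlap. For Bcl2, Bcl2l11 and Bbc3 the R7-III means (14.7, 57.6 and 16.8 TPM) lay between those of R7-I (11.6, 52.8 and 12.5 TPM) and R7-II (37.2, 86.3 and 44.5 TPM), and for Bcl2l1 the mean of 286 TPM also lay between 307 in R7-I and 194 in R7-II. The steps from R7-I to R7-III in these genes were not past the threshold.

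TPM is corrected for length, so that levels can be added across genes. The 4 survival genes Bcl2, Bcl2l1, Mcl1 and Bcl2a1b summed to 738 ± 14.7 TPM in R7-I, 702 ± 14.8 in R7-III and 721 ± 18.0 in R7-II (SD, n = 3), and R7-II overlapped with both other clones. With all 4 A1 genes in the sum it was 910.4 ± 12.6 TPM in R7-I, 862 ± 20.6 in R7-III and 809.7 ± 15.3 in R7-II, and the R7-II libraries were all the lowest. The make-up of the sum of the 4 genes also differed. Bcl2l1 held 41.6% of it in R7-I, 40.7% in R7-III and 27.0% in R7-II, whereas Mcl1 held 29.7%, 31.1% and 42.8% and Bcl2 1.57%, 2.09% and 5.15%. Mcl1 was at 0.715 and 0.762 times the level of Bcl2l1 in R7-I and R7-III and at 1.59 times in R7-II, and the Bcl2l1 level was 26.5, 19.5 and 5.29 times that of Bcl2 in R7-I, R7-III and R7-II. None of these shares of Bcl2l1, Mcl1 or Bcl2 in an R7-II library overlapped with those of the other clones. The levels of these genes did not overlap either and the sum varied little, so the shares largely repeat the levels given above.

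The 4 BH3-only genes Bcl2l11, Bbc3, Pmaip1 and Bid summed to 132 ± 7.16 TPM in R7-I, 142 ± 0.743 in R7-III and 192 ± 23.6 in R7-II. Their make-up differed too, with Bid as the largest part in R7-I (47.0%) and R7-III (42.8%) and Bcl2l11 in R7-II (44.9%), and with Bbc3 at 9.40%, 11.8% and 23.1%. The survival sum was 5.59 ± 0.201 times the BH3-only sum in R7-I, 4.94 ± 0.0903 times in R7-III and 3.78 ± 0.386 times in R7-II. The R7-II values, 3.45 to 4.21, were below all others. With all 4 A1 genes in the survival sum the ratios were 6.90, 6.07 and 4.25. Bcl2 against its BH3-only partner Bcl2l11 went the other way, at 0.22 in R7-I, 0.255 in R7-III and 0.436 in R7-II. These are ratios of transcripts, and protein was not measured in these files.

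**Figure D4:**
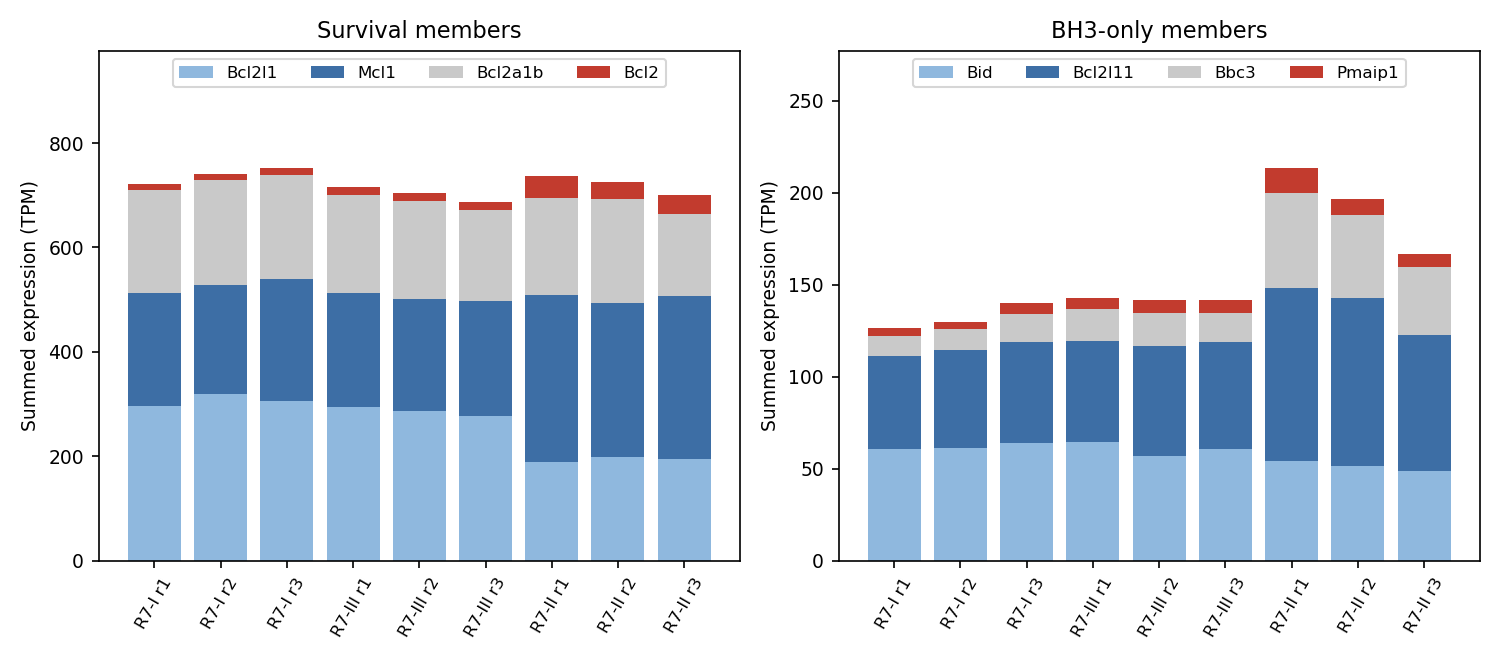
Sums of TPM over the survival genes and over the BH3-only genes in each library, split by gene and ordered by clone. The survival sums are between 686 and 751 TPM in all libraries with a smaller Bcl2l1 part in R7-II, and the BH3-only sums reach 167 to 213 TPM in R7-II against 127 to 143 TPM elsewhere.

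To place these genes among all others, the genes with the most similar pattern over the 9 libraries were looked up by Pearson's r of log2(TPM + 1). The 9 points are 3 libraries of each of 3 clones, so a high r says mostly that a gene also set R7-II apart. For Bcl2 the closest were Itm2b (r = 0.9988) and Adrbk1 (r = 0.9983), and 1717 genes had an r above 0.95. For Mcl1, with 1614 such genes, they were Kansl1 (r = 0.9975) and Pik3ip1 (r = 0.9966), and for Bbc3, with 1011, Arap2 (r = 0.9964) and Rbl2 (r = 0.9952). For Bcl2l11, with 418, they were Creb3 (r = 0.993) and Swsap1 (r = 0.9898). For Bcl2l1, with 333, they were Cycs (r = 0.996), which encodes the cytochrome c that Bax and Bak release, and Stat4 (r = 0.9959). Bak1 was closest to Ttk (r = 0.9808) and Ergic1 (r = 0.9799), with 36 genes above 0.95. Few genes had the patterns of Pmaip1 (15, closest S100pbp and Dr1), Bid (4, closest Dlst and Mcu) and Bax (3, closest A630075F10Rik and Nkiras1). For Bcl2a1b there were none, and its closest genes were Rims3 (r = 0.8513) and Psmb1 (r = 0.8311).

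Counts in the gene lists that follow stand beside 56.1% of all genes called against R7-I (40.6% higher, 15.5% lower) and 53.6% against R7-III (35.6% higher, 18.0% lower). Of 16 further Bcl-2 family genes, 11 passed the filter on low values. Against R7-I, 5 were higher and 2 lower in R7-II, and against R7-III 5 and 3, with medians of 0.46 and 0.17 on the log2 scale. With median-of-ratios scaling the split against R7-III was 3 and 3. Among the genes called in the same direction in both comparisons, the largest differences were in Bnip3l, which encodes a mitophagy receptor, with 54.5 TPM in R7-II against 19.1 in R7-I and 23.2 in R7-III (log2 fold changes 1.47 and 1.2), and Bmf, a BH3-only gene, with 3.10 TPM against 0.597 and 0.813 (1.36 and 1.18). Bcl2l2, which encodes the survival protein Bcl-w, was the only gene of this list that passed between R7-III and R7-I, and was picked out here after its values were seen. It was at 8.17, 6.57 and 7.44 TPM in R7-III. The R7-I libraries ranged from 1.90 to 2.15 TPM and the R7-II libraries from 2.18 to 2.49 TPM, so R7-III stood apart. Its log2 fold change was 1.47 (SE 0.0958, adjusted p = 9.22e-06, limma) for R7-III against R7-I, and -1.34 (adjusted p = 8.83e-07) for R7-II against R7-III, the largest of the list in size in that comparison. The gene is at chr14:54883377-54888234 (plus strand), 0.659 megabases beyond the end of the T cell receptor alpha locus. That locus was rearranged in the founder cell of each line. Whether this position has any part in the Bcl2l2 level was not tested. Bcl2l2 shares 594 exon bases with an annotated gene on the same strand, so its reads may not all be its own.

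Downstream of the family, 17 caspase and mitochondrial genes were tested. Relative to R7-I, 6 were higher and 7 lower in R7-II, and against R7-III also 6 and 7, with medians of 0.12 and -0.12. With median-of-ratios scaling these counts were 4 and 8 against R7-I and 3 and 8 against R7-III. Apaf1, the scaffold of the apoptosome, was higher with 20.9 TPM in R7-II against 9.92 in R7-I and 11.2 in R7-III, and Casp9, the caspase it activates, was higher with 6.12 TPM against 3.45 and 3.93. Casp6, an effector caspase, was at 13.2 TPM against 5.55 and 5.77. In the other direction, Cycs was at 136 TPM in R7-II against 186 in R7-I and 179.9 in R7-III (log2 fold changes -0.45 and -0.40), and the channel genes Vdac1 and Vdac2 were lower as well, at 208 TPM against 246 and 253 and at 246 TPM against 283 and 273.

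Of 11 death receptor pathway genes, 6 were higher and 1 lower in R7-II when set against R7-I, and 5 and 1 against R7-III, with medians of 0.33 and 0.27. With median-of-ratios scaling they were 5 and 2, and 4 and 1. The receptor and its ligand differed in opposite directions. Fas was at 71.8 TPM in R7-II against 43.8 in R7-I and 39.8 in R7-III (log2 fold changes 0.71 and 0.83), while Fasl was at 3.02 TPM against 9.97 and 8.04 (-1.44 and -1.16). Tnfrsf1a, a receptor for TNF, was at 26.8 TPM against 16.7 and 17.3. Cflar, which encodes the caspase-8 inhibitor c-FLIP, was at 88.8 TPM in R7-II, 89.9 in R7-I and 81.7 in R7-III and did not pass, nor did Birc3.

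Among 14 tested transcription factor genes known to act on the family, 8 were higher and 5 lower in R7-II in each comparison, with medians of 0.34 and 0.32. Myb was at 56.4 TPM in R7-II against 24.4 in R7-I and 26.6 in R7-III, Ddit3 at 44.6 TPM against 24.7 and 23.5, and Trp53, the gene for p53, at 265 TPM against 210.4 and 210.0. Foxo1 and Foxo3, named after their values were seen, had means of 54.8 and 31.8 TPM in R7-II, against 30.8 and 19.1 in R7-I and 30.4 and 21.4 in R7-III. Among the lower ones, Nfkb1, which encodes an NF-kappa-B subunit, was at 564 TPM against 729.7 and 628. Irf4, induced by antigen receptor signals, was at 406 TPM against 502 and 468.5. The listed NF-kappa-B subunit genes did not all differ in 1 direction. Rel was lower too, at 103 TPM in R7-II against 121 in R7-I and 123 in R7-III, but Rela was higher, at 157 TPM against 123 and 126. Nfkb1 was also the 1 gene of this list that passed between R7-III and R7-I (log2 fold change -0.22). E2f1, a cell cycle factor, was at 11.8 TPM in R7-II against 27.4 in R7-I and 41.6 in R7-III.

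Of 10 tested targets of p53 other than the members, 7 were higher and 1 lower in R7-II when set against R7-I, and 6 and 2 against R7-III, with medians of 0.64 and 0.62. With median-of-ratios scaling 6 were higher and 2 lower in each. Trp53inp1 had the largest difference, at 106 TPM in R7-II against 17.7 in R7-I and 18.6 in R7-III (log2 fold changes 2.53 and 2.43). Cdkn1a, which encodes the cell cycle inhibitor p21, was at 128 TPM against 63.0 and 64.1, Phlda3 at 75.7 TPM against 30.9 and 37.9, and Ccng1 at 217 TPM against 129.6 and 138.5. Of the 5 cytokine receptor genes, 2 were higher and 2 lower in each R7-II comparison. Il7r, the receptor chain through which IL-7 sustains Bcl2, had a mean of 5.31 TPM in R7-II against 1.62 in R7-I and 1.01 in R7-III. Its R7-II libraries were uneven, at 5.37, 2.70 and 7.85 TPM. They stood in the order of their myeloid sums, and the part of other cells was not tested. Il2rg, the shared gamma chain, was at 781 TPM against 601 and 646. Il2ra was at 259.5 TPM against 377 and 357, and Il15ra at 23.4 TPM against 49.1 and 52.2.

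**Figure D5:**
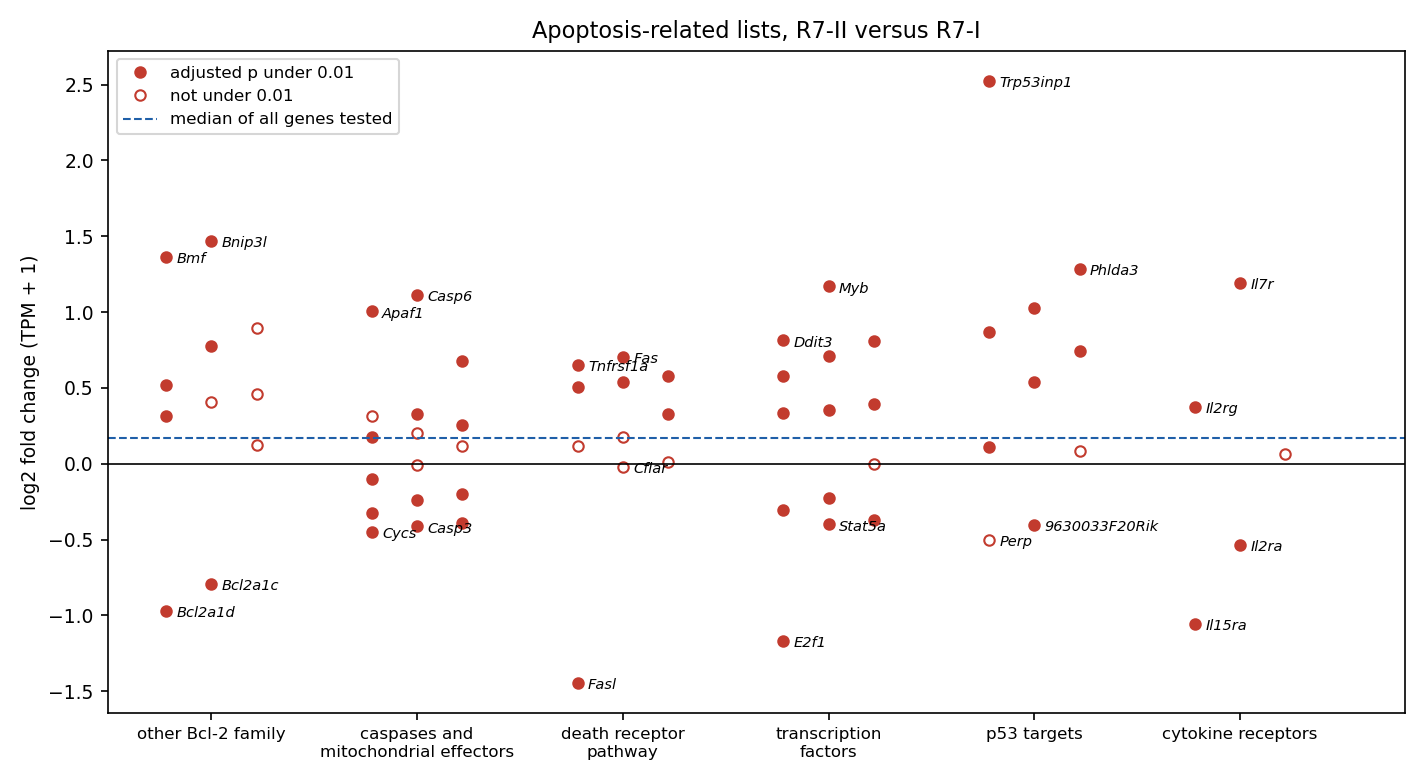
Log2 fold change on the log2(TPM + 1) scale of each tested gene of the pathway lists, R7-II against R7-I, 1 point per gene, with the 2 lowest and 2 highest genes of each list labelled. Trp53inp1 lies highest among the p53 targets, at 2.53, and Fasl lowest among the death receptor genes, at -1.44.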

How the data were processed

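RNA of peptide-activated, tetramer-sorted CD8 T cells was sequenced in 9 libraries, 3 per clone, from poly(A) RNA with an unstranded kit. The authors estimated gene levels with RSEM 1.2.11 on mm10 and deposited TPM values per gene symbol, which were used as given. The submitters' processing notes also name DESeq2 1.8.1, but counts were not analysed here. RSEM was named for alignment as well as for counting, and the alignment program it called was not given in the sources used here. Unstimulated samples, qRT-PCR and flow cytometry were not analysed here. TPM keeps no depth.

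Genes with a maximum TPM above 1 were taken to log2(TPM + 1) and fitted with limma 3.58.1 in R 4.3.3 (lmFit, eBayes with trend), 1 fit holding all 9 libraries, and a threshold of 0.01 after Benjamini-Hochberg adjustment. The fit was tested on simulated data. Fold changes on this scale understate those of low genes. Exact two-sided permutation tests used scipy 1.17.1 in Python 3.11.15. As nothing says that the replicates came from separate mice, p-values may measure technical spread only. Members and gene lists were chosen with earlier results of these data known. All members are named. Of each list, the rule names the 3 most abundant genes and the 3 with the largest change in both R7-II comparisons, and of each member the 2 genes most alike; not every gene it takes is printed. Positions are from GENCODE M21 and promoters from RefSeq, both GRCm38, the build of mm10. The labels do not say whether libraries with the same replicate number were paired, and the main fit did not pair them. Alternatives were other pseudocounts (0.1 and 5), filters, scalings, moderations and thresholds, fits of 6 libraries, a replicate block, the summed A1 genes and leaving out each library.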

Additional observations from a re-analysis of the deposited data

How the results depend on the processing

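Of 30 fold changes (10 genes in 3 comparisons), 15 passed the threshold, and 12 of these kept their direction and their call under every alternative run. The exceptions were Bax and Pmaip1 against R7-I and Bid against R7-III. Bax no longer passed under 12 of 20 alternatives, among them median-of-ratios scaling, where it was -0.00089. Pmaip1 no longer passed with quantile normalization (adjusted p = 0.0399, limma), in the fit of 6 libraries, or without the first or second R7-I library, and Bid did not pass without the third R7-II or the first R7-III library (highest adjusted p = 0.0128). Counts of members past the threshold ran from 6 to 9 against R7-I and from 6 to 8 against R7-III. Over the same alternatives, 5429 to 7747 and 5113 to 7571 of all genes passed, beside 11330 tested in the main fit. For R7-III against R7-I, where no member passed, 2 did in the fit of the 6 libraries compared and 2 at an adjusted p of 0.05, and 0 to 2 without 1 library each (Bcl2 without the first R7-II library, Bcl2 and Bak1 without the second). For all genes in that comparison, 953 became 2142 at an adjusted p of 0.05 and 436 to 1120 without 1 library each; the low counts were 436, 577, 496, 497 and 530 without R7-I replicates 1 and 2 and R7-III replicates 1, 2 and 3. The direction turned for values that had not passed: Bcl2a1b against R7-III was 0.011 with quantile normalization and -0.10 to 0.078 without 1 library each (above 0 without the third R7-II library), and for R7-III against R7-I, Bax was -0.019 with median-of-ratios scaling and -0.013 to 0.085, Mcl1 -0.044 to 0.033 and Bid -0.074 to 0.017 without 1 library each. Median-of-ratios scaling brought Bcl2a1b past the threshold against R7-I, and the summed A1 genes passed against both clones. Same-numbered libraries did not deviate together (correlations of -0.04 to 0.09). With the replicate number as a block, 6015, 5786 and 733 genes passed in the 3 comparisons, with 7, 7 and 0 members, Bax being the call lost against R7-I (adjusted p = 0.0154, limma). Because TPM keeps no depth, precision at low levels such as that of Pmaip1 is limited in a way these values do not show.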
